A study of Homo sapiens with 12 samples.

Results

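The 32 genes described here carry glucose from the cell surface to lactate, with side branches into glycogen and the pentose phosphate pathway. They were chosen by symbol, and each of the 32 had a row in the normalized tables of both cell lines, which hold 60315 entries per line. The measurements are RNA sequencing of C4-2B, a castration-resistant line derived from LNCaP prostate cancer cells, and of 22RV1, a castration-resistant line from a prostate cancer xenograft. Both are labelled wild type. All 12 libraries came from cells kept for 48 h in glutamine-free RPMI with 5% fetal bovine serum, to which L-glutamine was returned at 2 mM. In each line, 3 control libraries received nothing else and 3 libraries received the 56-mer, an oligonucleotide aptamer, at 50 nM. An aptamer is a nucleic acid whose fold lets it bind a chosen target. The labels name no control oligonucleotide, so the 56-mer and the addition of any oligonucleotide cannot be told apart. The series text calls the 3 libraries of a group biological triplicates without saying how the cultures were set up.

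Glucose enters cells through facilitative transporters, is trapped as glucose 6-phosphate by hexokinase, and is committed to glycolysis by phosphofructokinase. The lower steps return ATP and end in pyruvate, which lactate dehydrogenase turns into lactate for export by monocarboxylate transporters. The pentose phosphate pathway branches from glucose 6-phosphate and supplies NADPH and ribose. Many of the steps have several isozymes encoded by separate genes, and tumour cells are known for a high flux from glucose to lactate. Prostate luminal cells are also known for exporting citrate, and glutamine is a further carbon source for prostate cancer lines.

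The reads recovered from the tables numbered 8847368 to 13740386 per library. The luminal keratin KRT8 averaged 7208 in C4-2B controls and 9349 in 22RV1 controls, and the prostate antigen KLK3 averaged 1258 in 22RV1 controls. Markers of leukocytes, endothelium and fibroblasts were lower, the highest in controls being COL1A1 at 375 in C4-2B controls and 286 in 22RV1 controls. PTPRC, the pan-leukocyte marker, was at 0 in C4-2B with 56-mer, and CD3E was at 0 in the controls of both lines. Other markers of these lists were present. CD68 of the leukocyte list averaged 142 in C4-2B controls and 17.5 in 22RV1 controls. VWF of the endothelial list averaged 148 and 2.96. One library stood apart: 22RV1 56-mer 1 held the highest value of the 6 libraries for 23.3% of all tested genes and the lowest for another 23.3%, against 13.7% to 16.6% in the other 22RV1 libraries. In C4-2B the 56-mer 1 library was the highest for 11 of 30 members, against 18.4% of all tested genes. Log2 changes of members that moved by over 1.5 times without the 56-mer 1 library of their line are also given without it.

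The promoters of the 2 genes with the smallest p-values in C4-2B are shown first, because SLC2A1 and HK2 code for the entry steps of the pathway. The windows run from 250 bases before to 50 bases after a transcription start and are RefSeq sequence of build GRCh38.p14, read 5′ to 3′ on the strand of the gene. SLC2A1 has 1 window, chr1:42958819-42959118 on the minus strand. HK2 has 2 windows on the plus strand, chr2:74833877-74834176 and chr2:74834920-74835219. Capitals mark ACGTG on either strand, the core bound by hypoxia-inducible factors, and CACGTG, the E-box, which is a palindrome and holds ACGTG on both strands.
SLC2A1: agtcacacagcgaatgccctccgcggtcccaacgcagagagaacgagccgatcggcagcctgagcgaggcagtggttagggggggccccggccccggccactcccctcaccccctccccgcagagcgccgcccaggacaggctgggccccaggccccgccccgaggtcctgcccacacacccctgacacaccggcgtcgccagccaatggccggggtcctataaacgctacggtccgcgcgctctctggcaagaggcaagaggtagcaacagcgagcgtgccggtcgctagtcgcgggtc
HK2, upstream start: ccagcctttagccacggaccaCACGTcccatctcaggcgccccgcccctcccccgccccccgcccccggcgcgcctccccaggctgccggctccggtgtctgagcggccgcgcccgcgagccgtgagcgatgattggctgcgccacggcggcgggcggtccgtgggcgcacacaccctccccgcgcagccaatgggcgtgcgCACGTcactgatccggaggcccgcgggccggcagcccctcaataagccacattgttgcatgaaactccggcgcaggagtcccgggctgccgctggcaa
HK2, downstream start: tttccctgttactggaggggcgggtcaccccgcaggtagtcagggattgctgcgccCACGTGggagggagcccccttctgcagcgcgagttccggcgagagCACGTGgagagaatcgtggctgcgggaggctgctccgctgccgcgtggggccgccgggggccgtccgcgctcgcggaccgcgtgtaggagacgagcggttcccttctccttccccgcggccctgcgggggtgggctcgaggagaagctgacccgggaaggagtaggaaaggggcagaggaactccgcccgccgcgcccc

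The SLC2A1 window held no ACGTG. The upstream HK2 window held it at 2 places on the opposite strand, and the downstream window held 2 CACGTG. RefSeq windows were found for 29 of the 32 members. ACGTG stood in at least 1 window of 16 of these 29, or 55.2%, against 24.9% of the 27305 genes in the table. Counted by window, it was in 20 of 58 member windows (34.5%) and in 21.4% of all windows of the same length. CACGTG stood in windows of 7 members, among them LDHA, GAPDH, ALDOC and PGM2. It was in 7 of the 58 member windows (12.1%) and in 7.26% of all windows. A match in these letters is a description and not a binding site.

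In the control libraries the pathway took a larger part of the transcriptome in C4-2B than in 22RV1. The 32 genes made up 2.38% ± 0.0489 (SD, n = 3) of the reads of C4-2B controls and 0.740% ± 0.0155 (SD, n = 3) of those of 22RV1 controls. GAPDH alone, the glyceraldehyde 3-phosphate dehydrogenase, supplied 29.8% to 32.5% of these reads in every library. With 56-mer the shares were 2.34% ± 0.0708 in C4-2B and 0.732% ± 0.0214 in 22RV1, each within 1 SD of its control. In bulk RNA, less RNA per cell and fewer expressing cells cannot be told apart.

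The 2 lines were normalized separately, so their normalized read counts are set side by side as a description, without a test. The mean of the 3 controls was higher in C4-2B for 21 of the 32 members, against 34% of the 21647 genes that passed the filter in at least 1 line. It was over 3-fold higher in C4-2B for 11 members, against a background of 8.33%, and over 3-fold higher in 22RV1 for 6 members, against 33.1%. The median ratio of C4-2B to 22RV1 was 2.16 over the members and 0.613 over those 21647 genes. More genes passed the filter in 22RV1 (20517) than in C4-2B (16657), so more of the background entered through 22RV1 alone. Genes detected per library ran from 28342 to 31010 in 22RV1 and from 20779 to 22686 in C4-2B. The filter itself thus leans this background toward 22RV1.

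**Figure D1:**
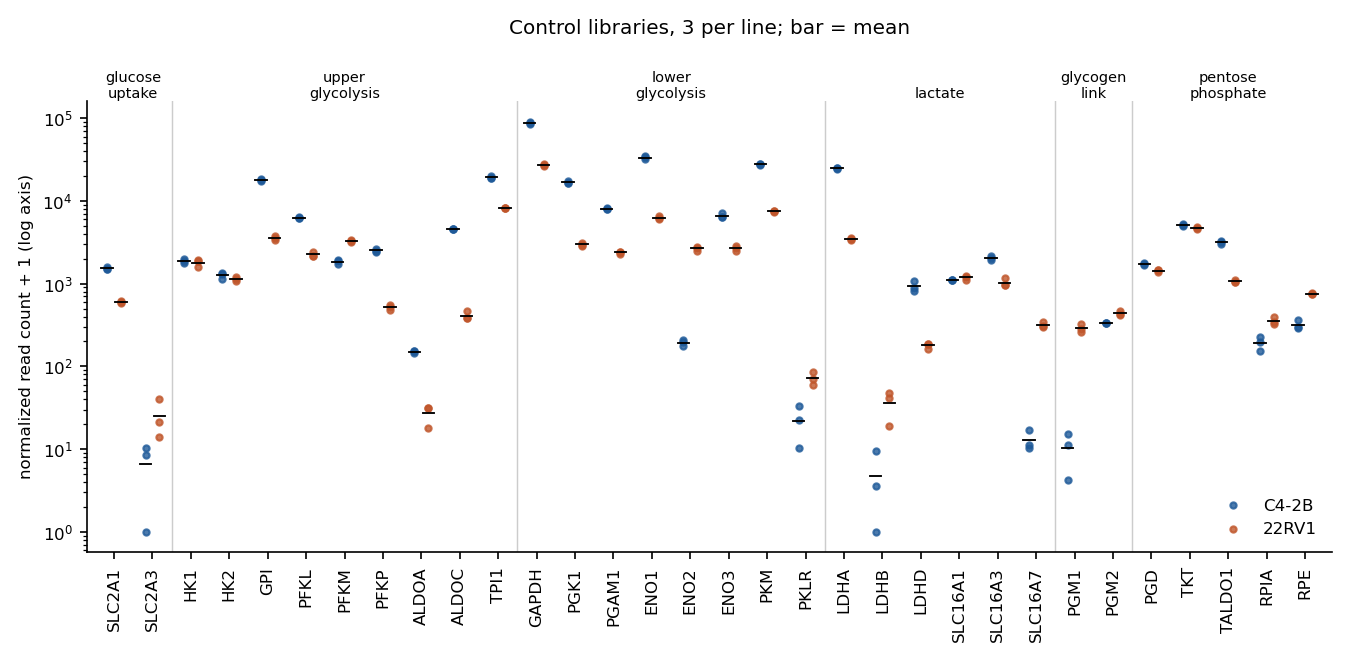
Normalized read count plus 1, on a log axis, of the 32 genes in the 3 control libraries of C4-2B (blue) and of 22RV1 (orange), ordered by pathway step. Points are libraries and black bars are means. LDHA, ALDOC, ENO1 and PGK1 lie higher in C4-2B, ENO2, SLC16A7 and PGM1 lie higher in 22RV1, and HK1, HK2 and TKT lie at nearly the same level.

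For glucose uptake, SLC2A1, the widespread transporter GLUT1, had control values of 1493, 1577 and 1519 in C4-2B and of 590, 610 and 604 in 22RV1. SLC2A3, the high-affinity transporter GLUT3, was at 7.49, 0 and 9.32 in C4-2B controls and at 39.0, 13.2 and 20.2 in 22RV1 controls. Per exon length, SLC2A1 held 99.7% ± 0.250 of the signal of the pair in C4-2B controls and 97.0% ± 1.65 in 22RV1 controls (SD, n = 3). SLC2A1 was thus the main transporter of the pair in both lines.

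The 2 hexokinases were expressed at similar levels in both lines. HK1, the widely expressed mitochondrial hexokinase, averaged 1872 ± 109 in C4-2B controls and 1782 ± 180 in 22RV1 controls. HK2, the inducible hexokinase of muscle and tumours, averaged 1269 ± 117 and 1140 ± 70.2. Divided by the length of their exons, HK1 held 58.7% ± 2.65 of the hexokinase signal in C4-2B controls and 60.0% ± 3.96 in 22RV1 controls, a split that was the same in both lines within the spread of the libraries.

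The phosphofructokinases differed in their leading form. In C4-2B controls PFKL, the liver form, held 47.6% ± 0.328 of the signal per exon length, PFKP, the platelet form, 35.3% ± 0.905, and PFKM, the muscle form, 17.0% ± 1.22. In 22RV1 controls PFKM led with 55.4% ± 1.29, followed by PFKL with 31.4% ± 1.05 and PFKP with 13.3% ± 1.02. The values of PFKM ran from 1710 to 1927 in C4-2B controls and from 3172 to 3346 in 22RV1 controls, while those of PFKP ran from 2441 to 2631 and from 482 to 554. No library of one line reached the range of the other for either gene.

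GPI, the isomerase that follows hexokinase, averaged 17991 ± 538 in C4-2B and 3561 ± 174 in 22RV1, and TPI1, the triose phosphate isomerase, 19218 ± 825 and 8252 ± 45.4. Of the aldolases, which split the 6-carbon sugar, ALDOC was at 4530, 4590 and 4560 in C4-2B controls and at 381, 382 and 463 in 22RV1 controls, a ratio of means of 11.2. ALDOA was listed at 145, 153 and 151 in C4-2B and at 30.0, 17.3 and 30.8 in 22RV1. In GENCODE 29, other genes cover 93.8% of the coding bases of ALDOA. They are AC093512.2 on the same strand, at 25.1 to 56.8 in C4-2B controls, and AC093512.1 on the opposite strand, at 1385 to 1715. How the authors counted reads shared by overlapping genes is not given in the sources used here. The ALDOA values and any split between the aldolases are therefore uncertain.

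In lower glycolysis GAPDH had the highest level per kilobase of exon of all 32 members in both lines, 29295 normalized reads per kilobase in C4-2B controls and 9045 in 22RV1 controls. TPI1 came next in both, at 7118 and 3056, although with the longest transcript as length ENO1 came before it in C4-2B, at 13121 against 10901. PGK1, the phosphoglycerate kinase, was 5.62-fold and PGAM1, the phosphoglycerate mutase, 3.36-fold higher in C4-2B. These genes, with ENO1, LDHA and PKM, are known to have processed pseudogenes, and reads that fit a copy as well could have been split or dropped.

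The enolases, which make phosphoenolpyruvate, also differed in their split between the lines. ENO2, the neuronal enolase, was at 173, 205 and 195 in C4-2B controls and at 2775, 2479 and 2728 in 22RV1 controls, a ratio of means of 13.9. It held 0.565% ± 0.0668 of the enolase signal per exon length in C4-2B and 25.5% ± 1.61 in 22RV1. ENO1, the ubiquitous form, held 79.9% ± 0.625 and 48.9% ± 0.758, and ENO3, the muscle form, 19.5% ± 0.677 and 25.6% ± 0.964. In 22RV1, ENO2 and ENO3 were thus at the same share within the spread of the 3 libraries, and with the longest transcript as length ENO3 lay above ENO2, at 34.1% against 18.2%.

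PKM, the pyruvate kinase of muscle and proliferating cells, averaged 27649 ± 452 in C4-2B controls and 7464 ± 191 in 22RV1 controls. It held 99.8% ± 0.109 and 97.5% ± 0.396 of the signal of its family, the rest being PKLR, the form of liver and red cells. The tables are per gene, so the splice forms PKM1 and PKM2 are not separated in them.

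**Figure D2:**
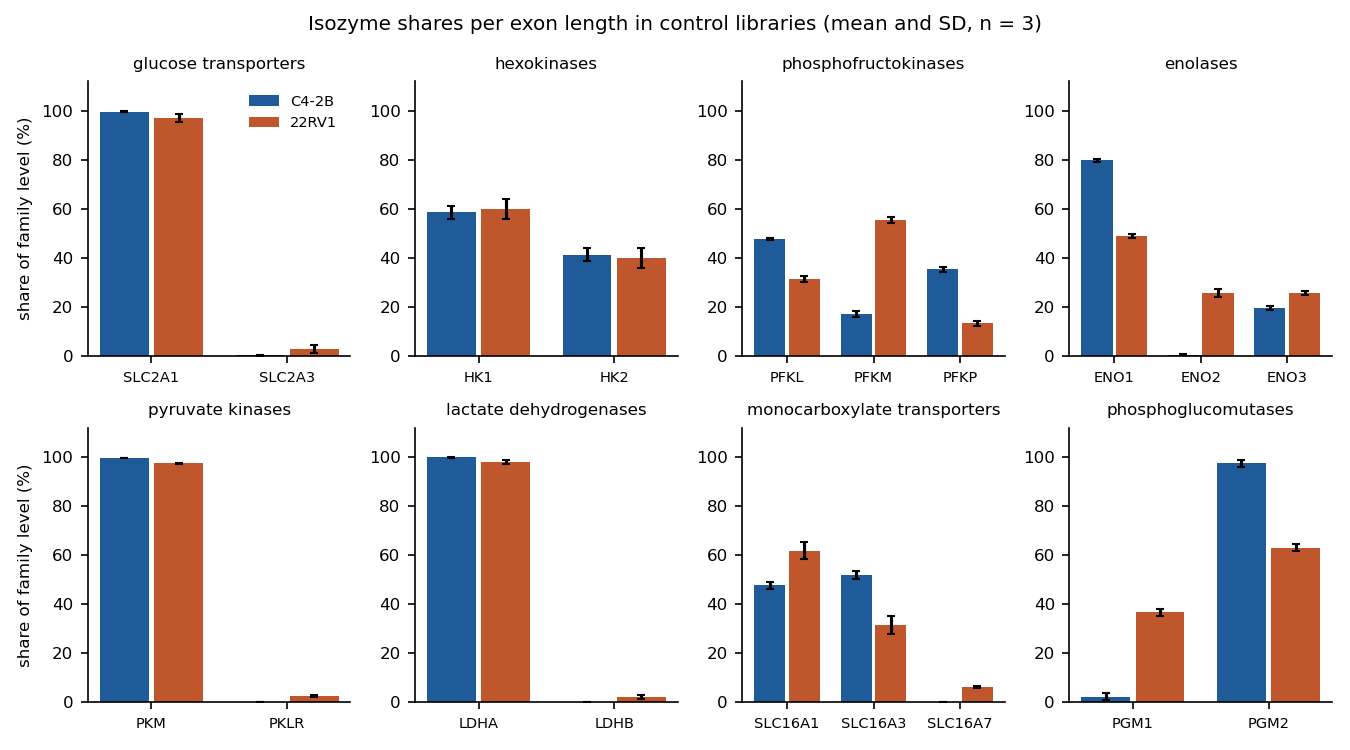
Share of each isozyme in the summed level of its family, in percent, each gene divided by the length of its exons in GENCODE 29. Bars are means of the 3 control libraries of C4-2B (blue) and 22RV1 (orange) and error bars are SD. The hexokinase bars are alike, PFKM leads in 22RV1 but not in C4-2B, and ENO2, SLC16A7 and PGM1 have a visible share in 22RV1 but hardly any in C4-2B.

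At the lactate step, LDHA, the subunit that favours lactate formation, was at 25113, 24417 and 24889 in C4-2B controls and at 3487, 3391 and 3564 in 22RV1 controls, a ratio of means of 7.13. LDHB, the subunit that favours pyruvate formation, was at 8.57, 0 and 2.54 in C4-2B and at 47.0, 18.3 and 40.5 in 22RV1. In GENCODE 29 another gene on the same strand, AC010197.2, covers 93.5% of the coding bases of LDHB, so the LDHB values carry the same doubt as those of ALDOA. AC010197.2 itself was at 0 in the C4-2B libraries and at most 3.54 in 22RV1. LDHD, the mitochondrial D-lactate dehydrogenase, averaged 925 ± 139 in C4-2B and 178 ± 13.7 in 22RV1.

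The lactate exporter SLC16A3 (MCT4) averaged 2052 ± 127 in C4-2B controls and 1031 ± 116 in 22RV1 controls, while SLC16A1 (MCT1), which carries lactate both ways, averaged 1114 ± 4.85 and 1192 ± 74.6. SLC16A7 (MCT2), a high-affinity carrier of pyruvate and lactate, was at 16.1, 10.3 and 9.32 in C4-2B and at 296, 340 and 307 in 22RV1, a ratio of means of 26.5. Per exon length, SLC16A1 and SLC16A3 held 47.8% ± 1.5 and 52.0% ± 1.49 of the transporter signal in C4-2B and 62.0% ± 3.55 and 31.7% ± 3.69 in 22RV1.

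In the glycogen link, PGM1, the phosphoglucomutase between glucose 1-phosphate and glucose 6-phosphate, was at 3.21, 10.3 and 14.4 in C4-2B controls and at 329, 259 and 282 in 22RV1 controls. Its ratio of means, 31.2, was the widest of the 32 genes between the lines. PGM2, whose product acts mainly on pentose phosphates, averaged 332 ± 2.63 and 435 ± 27.7. The pentose phosphate genes were closer between the lines. PGD, the 6-phosphogluconate dehydrogenase, and TKT, the transketolase, were 1.19-fold and 1.09-fold higher in C4-2B, and TALDO1, the transaldolase, 2.97-fold. RPIA and RPE, the isomerase and epimerase of ribulose 5-phosphate, were 1.84-fold and 2.36-fold higher in 22RV1. For RPE, 23.8% of exon bases, though none of the coding bases, are covered by the opposite-strand gene KANSL1L in GENCODE 29. KANSL1L was at 223 to 288 in C4-2B controls and at 583 to 673 in 22RV1 controls, also higher in 22RV1. How shared reads were counted is not given, so the RPE ratio is uncertain too.

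The next question was whether the 56-mer changed the pathway within each line. In C4-2B, 30 members passed the filter (10 normalized reads or more in 3 or more libraries of the line), and SLC2A3 and LDHB did not. None of the 30 passed an adjusted p of 0.05 with limma, against 0.066% of all tested genes (11 of 16657). At an unadjusted p under 0.05 there were 6 members of 30, against 8.92% of all tested genes. With edgeR on the recovered reads no gene was called in this line, and 1343 had an unadjusted p under 0.05. DESeq2 called 42 genes, 2 of them members.

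The 6 members were SLC2A1, HK2 and PFKP, which were lower with 56-mer, and PKM, TALDO1 and ENO3, which were higher. The 3 lower ones act at glucose entry, phosphorylation and the committed step. Other isozymes of these steps were not lower, with ratios of means of 1.11 for HK1, 1.002 for PFKL and 1.02 for PFKM and overlapping groups. Groups did not overlap for 7 of the 30 members, against 14.7% of all tested genes: HK2, PFKP and SLC2A1 were lower (background 7.08%) and GPI, PGD, PKM and TALDO1 higher (background 7.59%).

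SLC2A1 was at 1493, 1577 and 1519 in C4-2B controls and at 1218, 1007 and 1033 with 56-mer. Each 56-mer library lay below each control, with 56-mer 1 the nearest to the controls. The log2 change was −0.50 ± 0.10 (SE; 95% interval −0.71 to −0.29), a ratio of means of 0.710, with an unadjusted p of 4.22e-05 and an adjusted p of 0.0540 by limma. It passed the threshold under 8 of the 16 alternatives, among them DESeq2 (adjusted p = 0.00149) and without 56-mer 1 (log2 change −0.58, adjusted p = 0.000448). The share of all tested genes called was 0.06% with quantile normalization, 0.066% with equal totals, 0.118% without a filter, 0.0883% with a mean of at least 50, 0.078% with a pseudocount of 10, 0.252% with DESeq2, 0.119% with the GC and length trends removed and 0.496% without 56-mer 1. SLC2A1 did not pass with edgeR (adjusted p = 0.203), with a pseudocount of 0.1 (0.0676), without trend or robust variance (0.673), nor without any other single library (0.249 to 0.598). In the authors' deposited DESeq table its log2 change was −0.49, with an unadjusted Wald p of 6.11e-06 and an adjusted p of 1. The lowest adjusted p of that table was 0.447. The authors' adjustment was not reproduced here, so their adjusted p-values are not comparable with those above.

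HK2 was at 1324, 1134 and 1348 in C4-2B controls and at 964, 1004 and 958 with 56-mer, with no overlap. The spread was wider in the controls (SD 117) than with 56-mer (SD 24.9). Its log2 change was −0.38 ± 0.10 (SE), with an unadjusted p of 0.00133 and an adjusted p of 0.294 by limma. The adjusted p ran from 0.0369 (DESeq2, the only alternative in which it passed) to 0.776.

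HK1 was at 1989, 1852 and 1773 in C4-2B controls and at 1892, 2168 and 2196 with 56-mer, which overlap. Within each library the log2 ratio of HK2 to HK1 averaged −0.56 ± 0.16 over the controls and −1.09 ± 0.11 over the 56-mer libraries (SD, n = 3 each). The ratio was lower in each 56-mer library than in each control, a difference of −0.53. The exact two-sided permutation test gave p = 0.1, the smallest that 3 against 3 libraries allow, and 0.8 after adjustment over the 16 isozyme ratios tested. The share of HK2 in the hexokinase signal per exon length was 41.3% ± 2.65 in controls and 32.7% ± 1.73 with 56-mer. In 22RV1 the ratio differed by 0.069 (exact permutation p = 0.7), and by −0.020 to 0.20 without single libraries.

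PFKP was at 2631, 2441 and 2486 in C4-2B controls and at 2071, 2274 and 2085 with 56-mer. The groups did not overlap, and the log2 change was −0.23 ± 0.083 (SE), with an unadjusted p of 0.00907 and an adjusted p of 0.446 by limma. The log2 ratio of PFKP to PFKL differed by −0.23 between groups with no overlap (exact permutation p = 0.1). The other phosphofructokinases had a ratio of means of 1.002 for PFKL and 1.02 for PFKM. PFKL nevertheless had one low library, 5378 in 56-mer 1 against 6720 and 6748 in the other 56-mer libraries.

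**Figure D3:**
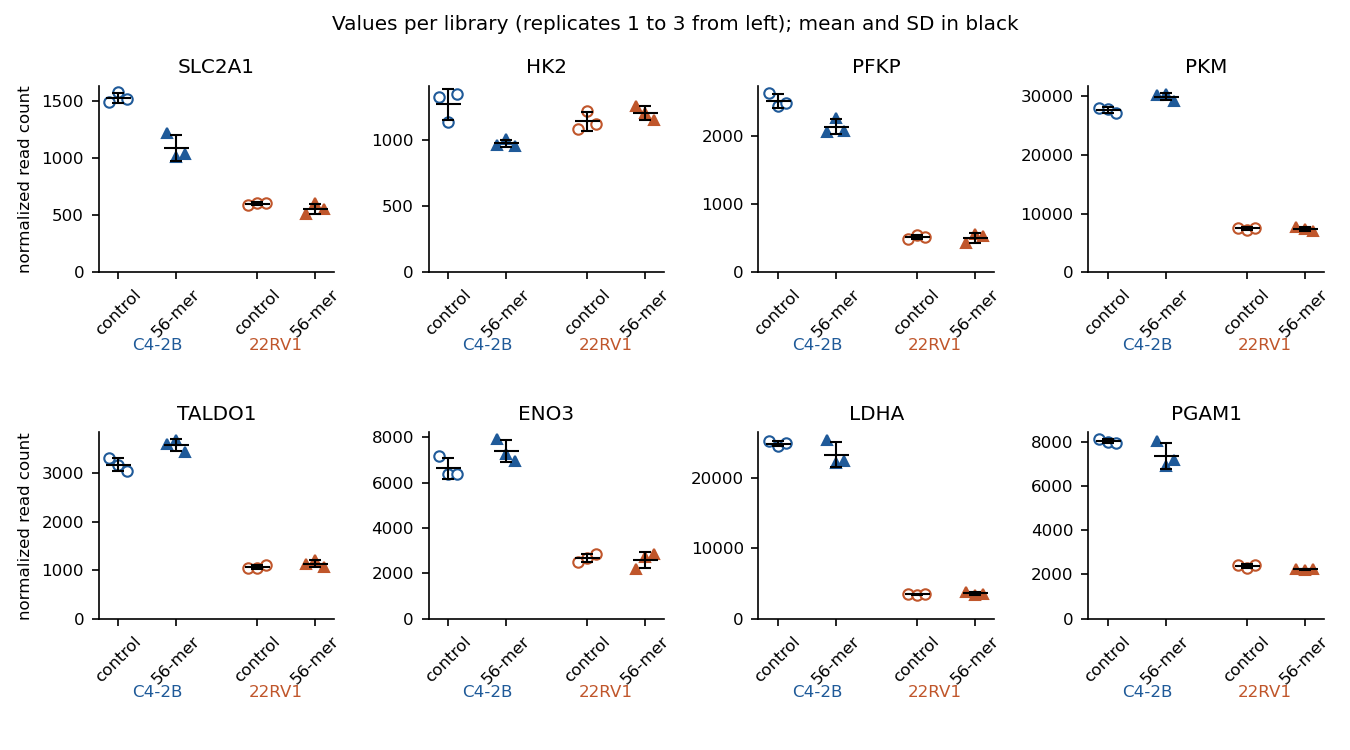
Normalized read count of 8 members in each library, replicates 1 to 3 from left in each group, with control as open circles, 56-mer as triangles, C4-2B in blue and 22RV1 in orange. Black marks are the mean and SD (n = 3). In C4-2B, SLC2A1, HK2 and PFKP lie lower with 56-mer without overlap and PKM and TALDO1 higher without overlap, while all 8 genes except PGAM1 overlap between the groups in 22RV1.

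Among the members with higher values, PKM was at 27970, 27843 and 27132 in C4-2B controls and at 30210, 30353 and 29191 with 56-mer. The log2 change was 0.11 ± 0.048 (SE), with an unadjusted p of 0.0253 and an adjusted p of 0.5004 by limma. With quantile normalization it was −0.0019. It was 0.072 with equal totals, 0.116 with edgeR, 0.113 with DESeq2 and 0.082 after GC and length correction. The size for PKM thus depended on the scaling, and its sign was not kept with quantile normalization. The sum of normalized counts per library was larger with 56-mer in C4-2B, and with columns scaled to equal totals the median change of all tested genes was −0.052 in place of −0.011.

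TALDO1, the pentose phosphate enzyme that feeds carbon back into glycolysis, was at 3317, 3175 and 3042 in controls and at 3605, 3697 and 3448 with 56-mer. All 3 libraries with 56-mer exceeded the controls. The log2 change was 0.17 ± 0.075 (SE), with an unadjusted p of 0.0298 and an adjusted p of 0.515 by limma. PGD, which makes NADPH in the same pathway, had no overlap either, with 1760, 1718 and 1659 against 2106, 1812 and 1765, with control 1 and 56-mer 3 nearly equal. Its log2 change was 0.14 with an unadjusted p of 0.134 by limma, and 0.063 without 56-mer 1.

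ENO3 was at 7165, 6378 and 6370 in C4-2B controls and at 7930, 7290 and 6961 with 56-mer. The groups overlapped through control 1, and the log2 change was 0.16 ± 0.070 (SE), with an unadjusted p of 0.0350 and an adjusted p of 0.530 by limma. GPI did not overlap (17475 to 18548 against 18572 to 19415), but its log2 change was only 0.068.

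At the lactate step, LDHA was at 25113, 24417 and 24889 in C4-2B controls and at 25285, 22046 and 22328 with 56-mer. The 56-mer 1 library had the highest value of all 6 and the other 56-mer libraries the lowest. The log2 change was −0.098 ± 0.055 (SE), with an adjusted p of 0.622 by limma. Without 56-mer 1 it was −0.16 with an adjusted p of 0.0286, and with quantile normalization −0.22 with an adjusted p of 0.0155. PGAM1 was at 8115, 7993 and 7925 in controls and at 8005, 6900 and 7153 with 56-mer, where 56-mer 1 lay within the controls and the other 2 below them, with a log2 change of −0.13 and an unadjusted p of 0.0687.

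By step, the log2 change in C4-2B was above 0 for 5 and below 0 for 4 of the 9 upper glycolysis genes, with a median of 0.012. It was above 0 for 5 and below 0 for 3 of the 8 lower glycolysis genes (median 0.028), and above 0 for 1 and below 0 for 4 of the 5 tested lactate genes (median −0.098). In the pentose phosphate group it was above 0 for 3 of 5 (median 0.027). Over the 30 tested members it was above 0 for 16 and below 0 for 14 (median 0.013), against 8052 and 8605 of all tested genes (median −0.011). That split moved with the scaling, to 10 above and 19 below with quantile normalization and to 11 and 19 with equal totals. In C4-2B the change of a gene also went with its GC content (Spearman rho 0.241 across 10457 genes, which are not independent replicates) and its transcript length (−0.317). In 22RV1 both trends had the opposite sign, with rho −0.189 for GC content and 0.129 for length across 12276 genes. These trends were read only from genes that averaged at least 100 normalized reads. In the C4-2B set, the median GC content was 53.3% for the 27 members in it and 49.2% for the whole set. After correction for GC content and length, the change of SLC2A1 in C4-2B was −0.52 on the log2 scale (adjusted p = 0.0164 by limma). Of the higher members, TALDO1 went from 0.17 to 0.073, ENO3 from 0.16 to 0.056 and PGD from 0.14 to 0.068. PKM went from 0.11 to 0.082, while GPI was at 0.068 before and 0.070 after the correction. PGAM1 went from −0.13 to −0.20. The members were then above 0 for 13 and below 0 for 17.

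**Figure D4:**
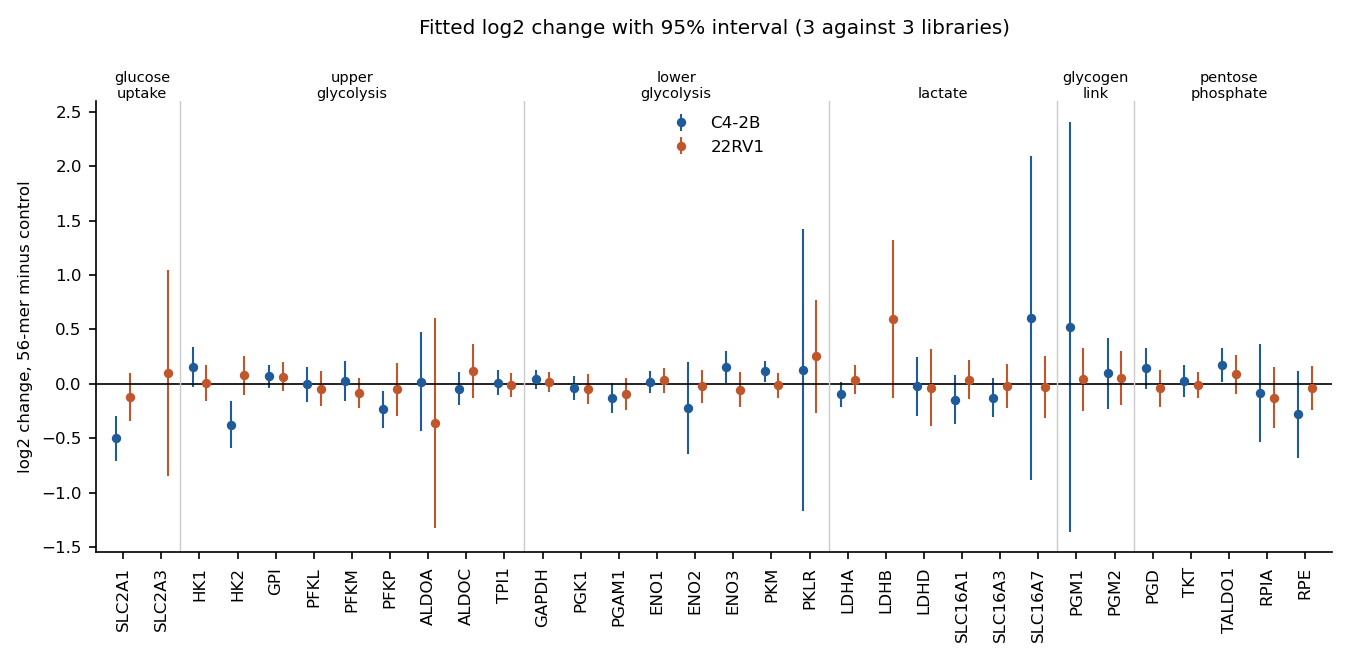
Fitted log2 change of 56-mer over control, with its 95% interval, for the members that passed the filter in C4-2B (blue) and in 22RV1 (orange), ordered by pathway step. The intervals of SLC2A1, HK2 and PFKP in C4-2B lie wholly below 0 and those of PKM, TALDO1 and ENO3 wholly above it, while each 22RV1 interval includes 0.

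In 22RV1, all 32 members passed the filter. None was called by limma at an adjusted p of 0.05, against 0.00975% of all tested genes (2 of 20517), and none had an unadjusted p under 0.05, against 3.91% (803 genes). No member was called by edgeR or DESeq2 in this line, where these tools called 2 and 3 genes. The 95% intervals of the limma fit show how precisely these changes were estimated, and larger changes are not excluded by them. For SLC2A1 the log2 change was −0.12, with an interval from −0.34 to 0.10. It was −0.060 without 56-mer 1 and −0.18 without 56-mer 2. For HK2 it was 0.079, from −0.10 to 0.26, and 0.047 without 56-mer 1.

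SLC2A1 was at 590, 610 and 604 in 22RV1 controls and at 510, 603 and 551 with 56-mer, which overlap. HK2 was at 1080, 1217 and 1123 and at 1255, 1207 and 1147, also with overlap. The groups did not overlap for 2 of the 32 members, against 9.03% of all tested genes. LDHB, the 1 with higher values (background 4.45%), was at 47.0, 18.3 and 40.5 in controls and at 48.2, 47.8 and 53.9 with 56-mer, with the smallest unadjusted p of the 32 (an unadjusted p of 0.108 by limma, for a log2 change of 0.59 ± 0.36, SE). Control 1 lay just below the lowest 56-mer library, and without single libraries the log2 change ran from 0.19 to 0.85. PGAM1, the 1 with lower values (background 4.58%), was at 2412, 2295 and 2436 in controls and at 2230, 2211 and 2260 with 56-mer, a log2 change of −0.092 with an unadjusted p of 0.211 by limma.

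PFKM, the leading phosphofructokinase of 22RV1, was at 3308, 3172 and 3346 in controls and at 2923, 3081 and 3267 with 56-mer (log2 change −0.085, an unadjusted p of 0.218 by limma). Without 56-mer 1 the log2 change of PFKM was −0.045. GPI was at 3539, 3399 and 3744 and at 3794, 3700 and 3676, and TALDO1 at 1042, 1055 and 1117 and at 1129, 1213 and 1076. Both sets overlap, and the log2 changes were 0.066 and 0.088, the latter 0.042 without 56-mer 2. ENO2, which was abundant in this line, was at 2775, 2479 and 2728 and at 2352, 2626 and 2903, so that the 56-mer libraries spanned the controls on both sides. LDHA, at 3487, 3391 and 3564 and at 3761, 3428 and 3545, also overlapped.

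By step, the median log2 change in 22RV1 was −0.0085 over the 9 upper glycolysis genes, −0.018 over the 8 lower ones, 0.0090 over the 6 lactate genes and −0.036 over the 5 pentose phosphate genes. Over the 32 members it was above 0 for 14 and below 0 for 18, with a median of −0.013, against −0.0026 over all tested genes. Without the 56-mer 1 library, which stood apart, it was above 0 for 19 and below 0 for 13.

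The change in 22RV1 minus that in C4-2B was tested in 1 limma fit over the 12 libraries. None of the 30 members tested had an adjusted p under 0.05, as was the case for 0% of the 15527 genes tested, of which 7.9% had an unadjusted p under 0.05. Here edgeR called 1 gene and DESeq2 called 11, none of them members. HK2 had the smallest p of the members, with a difference of 0.45 ± 0.13 (SE, log2) and an unadjusted p of 0.00202. Its adjusted p was 0.534, and 0.184 to 0.886 over the alternatives. For SLC2A1 the difference was 0.38 ± 0.14 (SE, log2), with an unadjusted p of 0.0139 and an adjusted p of 0.570 by limma. PKM (−0.13 ± 0.071, SE) and ENO3 (−0.21 ± 0.13, SE) came next, with unadjusted p-values of 0.0825 and 0.108 in the same limma fit. In 22RV1, PKM was at 7605, 7246 and 7540 in controls and at 7741, 7449.5 and 6988 with 56-mer, and ENO3 at 2501, 2693 and 2863 and at 2182, 2742 and 2869, both with overlap. Without 22RV1 56-mer 1 the difference for ENO3 was −0.091, and after the GC and length correction it was −0.076 for ENO3 and −0.080 for PKM. No difference between the lines in the response of these genes was therefore established after adjustment.

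Other genes of glucose metabolism, 57 in a list of regulators, minor isozymes and neighbouring steps, were read in the same fits. In C4-2B, 40 were tested and none was called. The log2 change was above 0 for 15 and below 0 for 25 (median −0.034), against 8052 and 8605 of all tested genes (median −0.011). An unadjusted p under 0.05 was found for 4 of the 40, close to the 8.92% of all tested genes. Groups did not overlap for 10 of the 40, 3 higher and 7 lower with 56-mer, against 14.7% of all tested genes. PFKFB3 and PFKFB4 make fructose 2,6-bisphosphate, the activator of phosphofructokinase. PFKFB3 was at 843, 1074 and 874 in controls and at 621, 621 and 777 with 56-mer, and PFKFB4 at 1067, 857 and 1015 and at 785, 772 and 643. Neither overlapped, with log2 changes of −0.47 ± 0.13 and −0.42 ± 0.12 (SE) and adjusted p-values of 0.291 and 0.322 by limma.

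GYS1, the glycogen synthase of muscle and most other tissues, was at 920, 954 and 933 in C4-2B controls and at 746, 741 and 832 with 56-mer, with a log2 change of −0.28 ± 0.11 (SE) and an adjusted p of 0.483 by limma. G6PC3, a ubiquitous glucose 6-phosphatase, was at 1005, 911 and 990 and at 1225, 1212 and 1314, with a log2 change of 0.37 ± 0.10 (SE) and an adjusted p of 0.294 by limma. None of the 56-mer values of these 2 genes lay within the range of the controls. In 22RV1, 43 of the 57 were tested, none was called, and 1 had an unadjusted p under 0.05, against 3.91% of all tested genes. Groups did not overlap for 3 of the 43, all higher, against 9.03%. The gene with the small p was PDK4, a kinase that inhibits pyruvate dehydrogenase, at 4717, 5323 and 4517 in controls and at 6367, 6228 and 4858 with 56-mer, which overlap (log2 change 0.25, with an unadjusted p of 0.00305 and an adjusted p of 0.9996 by limma). The next 3 in 22RV1 had unadjusted p-values from 0.0955 to 0.138 by limma. G6PC3 was at 889, 941 and 945 in controls and at 1043, 1003 and 1046 with 56-mer (log2 change 0.16). PGLS, a lactonase of the pentose phosphate pathway, was at 691, 717 and 728 and at 739, 779 and 867 (log2 change 0.16). PDK1, a further pyruvate dehydrogenase kinase, was at 193, 243 and 151 and at 161, 182 and 134, which overlap (log2 change −0.28).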

How the data were processed

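The deposited normalized tables hold signal per gene symbol, that is, read counts which the authors scaled by a single size factor for every library. This was read from the values, of which 100% are whole multiples of 1 step within a tolerance of 0.01. Each line was scaled on its own. The recovered reads were used only in edgeR 4.0.16 and DESeq2 1.42.0, as alternatives. Per the file headers, the authors' comparison tables contain log2 fold changes, a score and p-values, of which a few are quoted. DESeq, with no version, is named in the submitters' processing notes, and which aligner, counter, build and annotation were used is not given in the sources used here.

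Genes with 10 or more in 3 or more of the 6 libraries of a line entered a fit by limma 3.58.1 (R 4.3.3, trend and robust variance) on log2(value + 1), two-sided, with Benjamini-Hochberg adjustment over all tested genes and a threshold of 0.05. Fold changes on this scale understate changes of low genes. The difference between lines used 1 fit of 12 libraries. Isozyme ratios used exact permutation tests. Errors are SD or, for log2 changes, SE. The limma p-values weigh a change against the spread between these libraries, which the fit moderates across genes. Counting intervals are not given, because replicates differ by more than counting error. Lengths, GC content and overlaps came from GENCODE 29, which held 91.6% of the symbols, and promoters from RefSeq. The steps were tested on simulated data with known changes. A log2 change of 0.5 was called for 36% of such genes in C4-2B and 62% in 22RV1. For the difference between lines it was called for 12.95%. The shares for a log2 change of 1 were 84%, 99% and 67.9%. A change of 0.5 or less can thus often go uncalled. The 200 changed genes per line were drawn only from genes above a minimum mean level. No GC or length trend was simulated. The shares called may therefore be too high for low genes, and for data in which fewer genes change.

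The members, lists, tests and alternatives were chosen with earlier results of these data known. Values per library are given for the 6 members with the smallest p per line, the 4 with the smallest p of the difference, isozyme families in controls (several of these as a range, a mean with SD or a share), and the 4 other pathway genes with the smallest p per line. PGD, GPI, HK1, PFKL, LDHA and PGAM1 in C4-2B and ENO2 and LDHA in 22RV1 were added after their values were seen. Entries without a symbol, 1 per table, were left out.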

Additional observations from a re-analysis of the deposited data

How the results depend on the processing

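No paired analysis was possible because nothing in the labels ties a control to a 56-mer library, and replicate numbers only follow the order of the records. With limma, the number of genes called in C4-2B (11) became 34 without a filter, 1 without trend or robust variance, 0 with edgeR, 42 with DESeq2, 19 after GC and length correction, and 0 to 81 without single libraries. The highest was without 56-mer 1, and the count was 0 without each of the other 5. The number of members called (0) became 2 with quantile normalization, 1 with equal totals, 1 without a filter, 1 with a mean of at least 50, 1 with a pseudocount of 10, 2 with DESeq2, 1 after GC and length correction, and 0 to 2 without single libraries. These calls were SLC2A1, HK2 (DESeq2) and LDHA (quantile normalization and without 56-mer 1).

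In 22RV1 the number of genes called (2) became 11 without a filter, 0 without trend or robust variance, 8 after GC and length correction, and 0 to 11 without single libraries. It was 5 without 56-mer 1, 11 without 56-mer 3 and 0 without each of the other 4. For the difference between lines (0 genes) it became 1 with quantile normalization, 5 without a filter, 1 without trend or robust variance, 1 with edgeR, 11 with DESeq2, 5 after GC and length correction, and 0 to 13 without single libraries. In these fits, no member was called in 22RV1 or for the difference.

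The sign of the log2 change differed from the main value in at least 1 alternative for 14 members in C4-2B (PGM1 had the largest main value, 0.52), for 17 in 22RV1 (SLC2A3, 0.098) and for 14 in the difference (PGM1, −0.48). Of the members named for their change, PKM in C4-2B reversed with quantile normalization (−0.0019), and in 22RV1 log2 changes crossed 0 without single libraries for PFKP (−0.13 to 0.062), ENO3 (−0.13 to 0.065) and PKM (−0.049 to 0.025).

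With the longest transcript as length, control shares were 68.1% (C4-2B) and 69.2% (22RV1) for HK1, 42.3% for PFKL in C4-2B, 61.8% for PFKM in 22RV1, 97.5% for ALDOC in C4-2B, 74.8% and 47.7% for ENO1, 99.9% and 99.1% for PKM, 62.4% for SLC16A3 in C4-2B, 53.2% for SLC16A1 in 22RV1 and 55.1% for PGM2 in 22RV1. The leading isozyme of each family was unchanged. The choice of length does not address the doubt about the ALDOA and LDHB reads, so the aldolase and lactate dehydrogenase splits stay uncertain. The cause of the other changes was not tested. With 3 libraries per group, exact tests cannot go below 0.1.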
